A study of Mus musculus with 6 samples.

Results

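A set of 10 immediate early genes outside the Fos and Jun families was followed through 6 single-cell RNA libraries of cultured mouse Müller glia. Its members were taken by symbol from the 27998 genes of each count matrix: Egr1, Egr2, Ier2, Ier3, Nr4a1, Btg2, Dusp1, Klf2, Klf4 and Klf6. The rule itself uses no measured value, but the members were chosen with earlier results of these data known. The cultures came from papain-dissociated mouse retinas grown in neurobasal medium to which EGF, N2, L-glutamine and 10% FBS were added, and were transfected with Lipofectamine. One library was made per treatment with the 10x Genomics V2 system: a let-7 antagomiR (an inhibitor of let-7 miRNAs), a miR-25 mimic, a miR-124 mimic, the antagomiR plus miR-25 mimic (the double combination), these plus miR-124 mimic (the triple combination), and control RNAs as the comparison. Every RNA was used at 500 nM. All 6 cultures were thus transfected, and no library of untransfected cells was analysed. The control label names both a mimic and an antagomiR, and no label names an RNA added to even out the total. By the labels, the control and the double combination thus held more RNA than a single treatment, and the triple combination the most. Amount of RNA and kind of RNA cannot be told apart where the totals differ. The labels give no mouse strain or age and do not say how many cultures entered a library.

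Immediate early genes are transcribed within minutes of a growth factor, calcium or stress signal, from promoters already occupied by factors such as serum response factor and CREB, and need no new protein to be made first. Many encode transcription factors, others shut the signal down again, and their transcripts are short-lived. In retinal glia they mark the early answer to injury and to growth factors, and tissue dissociation with enzymes is known to induce them as well. The study asked how 3 miRNAs affect the neurogenic potential of Müller glia, the glial cells that span the retina and can act as progenitors in fish.

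Each library held 11804176 to 23124374 UMIs (deduplicated transcript counts), and 2721 to 5158 cells per library were kept. The matrix of the double combination broke off before its stated end, so 3014 of its 5141 barcodes were read. Pairs of libraries shared 9 to 33 cell barcodes. Of the 12 clusters found without the early genes, 3 were called Müller-like; 5, 14 and 16 of 23 Müller glia markers were at least 2-fold above the median cluster in those led by Grem1, Lcn2 and Car14, and the 10 genes that lead the Grem1-led cells include none of the 23. Of the clusters not called Müller-like, the neuron- or progenitor-like one had 10 of these markers, an unnamed one 9 and the astrocyte-like one 7, all more than the Grem1-led cluster. Müller-like cells numbered 1494 in the let-7 antagomiR, 2930 in the miR-25, 1241 in the labelled miR-124, 1368 in the double, 2235 in the labelled triple and 1301 in the control library. The Car14-led cluster held 726 of those in the miR-124-labelled library and 1761 in that labelled triple combination, against 6 to 31 in the other 4 libraries. Fibroblast- or mesenchymal-like cells were the other large class, with 767 to 1238 cells in the treated libraries and 2171 in the control, and Müller-like cells made up 35.6% to 56.8% of kept cells in the treated libraries and 28.8% in the control.

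The let-7 antagomiR and the miR-25 mimic were checked through genes with matching seed sites, since a seed (bases 2 to 8 of a miRNA) is what pairs with a target. The miR-124 mimic was not checked, because its mature sequence was missing from the reference used. The seeds are in capitals, from RefSeq on GRCm38.p6; all 8 let-7 5p forms in that table share the let-7a seed, and the 3p arm was taken for miR-25 because the labels name no arm.
let-7a-5p: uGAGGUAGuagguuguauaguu
miR-25-3p: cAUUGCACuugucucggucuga
Over 6962 genes, those with a let-7 site differed from those without by 0.07 (log2, SE 0.01 across genes) in the let-7 antagomiR library against control. In the double combination against control the difference was 0.09 (SE 0.01). These and the following differences are after allowance for 3′ UTR length, base content and expression, and genes are not independent replicates. Without the allowance, the median log2 ratios with and without a let-7 site were 0.021 and 0.005 in the let-7 antagomiR library. In the double combination they were -0.019 and -0.013, so the let-7 difference there appears only with the allowance. Genes with a miR-25 site differed by -0.10 (SE 0.01) in the miR-25 library and -0.12 (SE 0.01) in the double combination. Their medians without the allowance, with and without a site, were -0.06 and 0.05 in the miR-25 library and -0.14 and 0.01 in the double combination. The miR-124-labelled library had let-7 site genes higher by 0.09 (SE 0.01), which its label does not name. In the triple-labelled library both differences were small, 0.00 (SE 0.02) for let-7 and 0.04 (SE 0.02) for miR-25 sites. Those 2 libraries are therefore called by their labels throughout, and a direction drawn from either rests on that label.

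In Müller-like cells the 10 genes together were highest in the miR-124-labelled and the triple-labelled library. Their summed level was 1885 CPM (UMIs of the genes per 1000000 UMIs of the summed cells) in the let-7 antagomiR library, 1749 with miR-25, 2856 in the miR-124-labelled library, 1397 in the double combination, 2610 in that labelled triple combination and 1618 in the control. The ratios to control were 1.17, 1.08, 1.77, 0.86 and 1.61 in that order of treatments. Most of the sum came from Btg2, Egr1 and Ier2, at 651.6, 444.5 and 292.8 of the 1618 CPM in the control. In Müller-like cells it therefore follows mainly these genes and can hide others that go the other way. CPM is a share of a cell's RNA, so more transcripts of these genes and less of other RNA cannot be told apart. With 1 library per treatment no test between treatments was possible; every interval covers counting error only, and a gene is called different at 1.5-fold or more on the log2(CPM + 5) scale. Of the 10, 9 reached 20 CPM in at least 1 library and were compared, among 7118 genes in all.

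**Figure D1:**
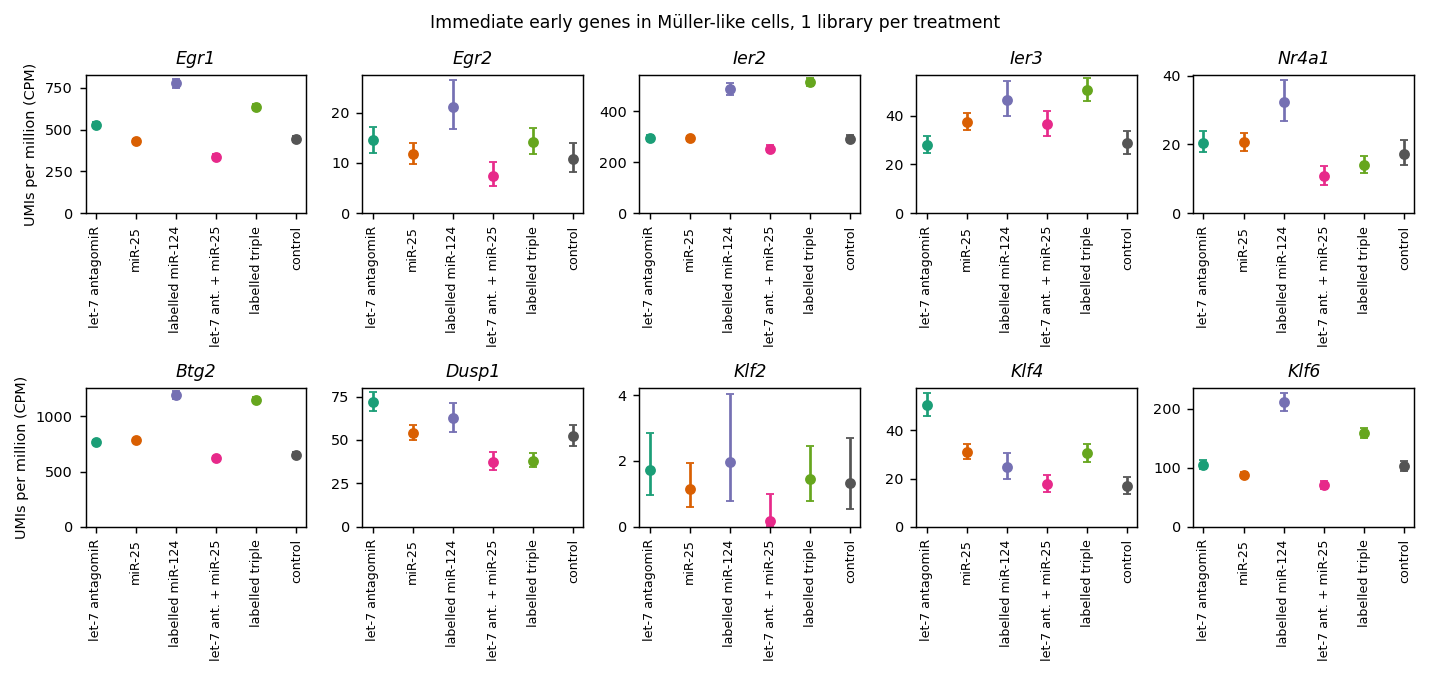
Level of each gene in Müller-like cells (vertical axis, CPM) in the 5 treated libraries and the control (horizontal axis); points are single libraries and bars are 95% Poisson counting intervals. Egr1, Ier2, Btg2 and Klf6 were highest in the miR-124-labelled and triple-labelled libraries, Klf4 in the let-7 antagomiR library.

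Egr1, a zinc-finger transcription factor that serves as the standard reporter of growth factor signalling, measured 528.5 CPM in the let-7 antagomiR, 429.8 in the miR-25, 776.5 in the labelled miR-124, 339.4 in the double, 635.0 in the labelled triple and 444.5 in the control library. Its relative Egr2, needed in Schwann cells for myelination, measured 14.5, 11.7, 21.2, 7.49 and 14.2 CPM in those 5 treated libraries and 10.7 in the control. For both genes the miR-124-labelled library was the highest and the double combination the lowest of the 6. Egr1 in the miR-124-labelled library was 1.75 times the control (95% interval 1.65 to 1.85) and Egr2 1.98 times (1.39 to 2.84). Egr2 was counted at few UMIs, and its intervals are wide.

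Ier2, a small nuclear protein induced by serum, measured 294.9 CPM in the let-7 antagomiR, 293.5 in the miR-25, 485.6 in the labelled miR-124, 253.3 in the double, 514.1 in the labelled triple and 292.8 in the control library. The let-7 antagomiR, miR-25 and control libraries thus lay within 1% of one another, while the libraries with the miR-124 label stood 1.66-fold (1.55 to 1.78) and, with the triple label, 1.76-fold (1.66 to 1.86) above control. Ier3, which is induced by stress and NF-κB signals and affects cell survival, measured 27.9, 37.6, 46.6, 36.7 and 50.5 CPM in the treated libraries and 28.8 in the control. It was above control in the double combination, at 1.28-fold (1.03 to 1.59), where Egr1 and Ier2 were below it.

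Btg2, an antiproliferative protein that binds the CCR4-NOT deadenylase, measured 769.5 CPM in the let-7 antagomiR, 782.4 in the miR-25, 1193 in the labelled miR-124, 623.6 in the double, 1154 in the labelled triple and 651.6 in the control library. The miR-124-labelled and triple-labelled libraries were 1.83 (1.75 to 1.92) and 1.77 (1.70 to 1.84) times the control. Nr4a1, an orphan nuclear receptor, measured 20.6, 20.6, 32.4, 10.7 and 14.1 CPM in the treated libraries and 17.3 in the control. It parted from Ier2 and Btg2 in the triple-labelled library, at 0.81 times the control (0.62 to 1.08) against 1.87 (1.41 to 2.49) in that labelled miR-124.

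Dusp1, the phosphatase that switches off MAP kinases after they have induced it, measured 71.9 CPM in the let-7 antagomiR, 54.0 in the miR-25, 62.8 in the labelled miR-124, 37.4 in the double, 38.1 in the labelled triple and 52.3 in the control library. Unlike Egr1 and Btg2 it was low in the triple-labelled library, 0.73 times the control (0.62 to 0.86). Its highest value was that of the let-7 antagomiR library, 1.38 times the control (1.19 to 1.59).

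The Krüppel-like zinc-finger factors followed different patterns. Klf4, one of the factors that reprogram fibroblasts to pluripotency, measured 50.7 CPM in the let-7 antagomiR, 31.1 in the miR-25, 24.8 in the labelled miR-124, 17.7 in the double, 30.5 in the labelled triple and 16.7 in the control library. Klf6, a growth-restraining factor raised by tissue injury, measured 104.9, 87.5, 211.4, 70.4 and 158 CPM in the treated libraries and 102.1 in the control. Klf4 stood 3.03-fold (2.41 to 3.85) above control with let-7 antagomiR, where Klf6 was at 1.03 (0.92 to 1.15). In cells with at most 5% mitochondrial UMIs Klf4 measured 38.4 CPM with let-7 antagomiR against 22.8 in the control, the control value resting on 13 UMIs, and its log2 ratio was 0.64, against 1.36 in all Müller-like cells. Klf2, best known from endothelium under flow, had 15, 13, 7, 1 and 13 UMIs in the treated libraries and 7 in the control, too few to compare.

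Counted by the 1.5-fold rule, the let-7 antagomiR and the miR-25 library each had 1 of the 9 compared genes higher and none lower. The gene was Klf4 in both. In cells with at most 5% mitochondrial UMIs Klf4 was at 18.9 CPM with miR-25 and 22.8 in the control (log2 ratio -0.22). Such cells of the Lcn2-led cluster alone had 15.4 CPM with miR-25 and 7.85 in the control, the latter on 3 UMIs. Over all 7118 genes, 1.01% were higher and 0.632% lower with let-7 antagomiR, and 1.48% and 1.01% with miR-25. The miR-124-labelled library had 7 of 9 higher and none lower (8.15% and 6.76% of all genes); the 2 others, Dusp1 and Klf4, were at log2 ratios of 0.24 and 0.46. The triple-labelled library had 5 of 9 higher, Ier2, Ier3, Btg2, Klf4 and Klf6, and none lower, where 11.2% and 8.91% of all genes were called. In the double combination 0 of 9 were called in either direction (3.33% higher and 4.92% lower of all genes), although 7 of the 9 log2 ratios were below 0. The median log2 ratio of the 9 genes was 0.24, 0.09, 0.74, -0.33 and 0.61 in the 5 treated libraries against control, in the order used above, and that of all genes 0.01, 0.03, 0.05, -0.01 and 0.06.

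**Figure D2:**
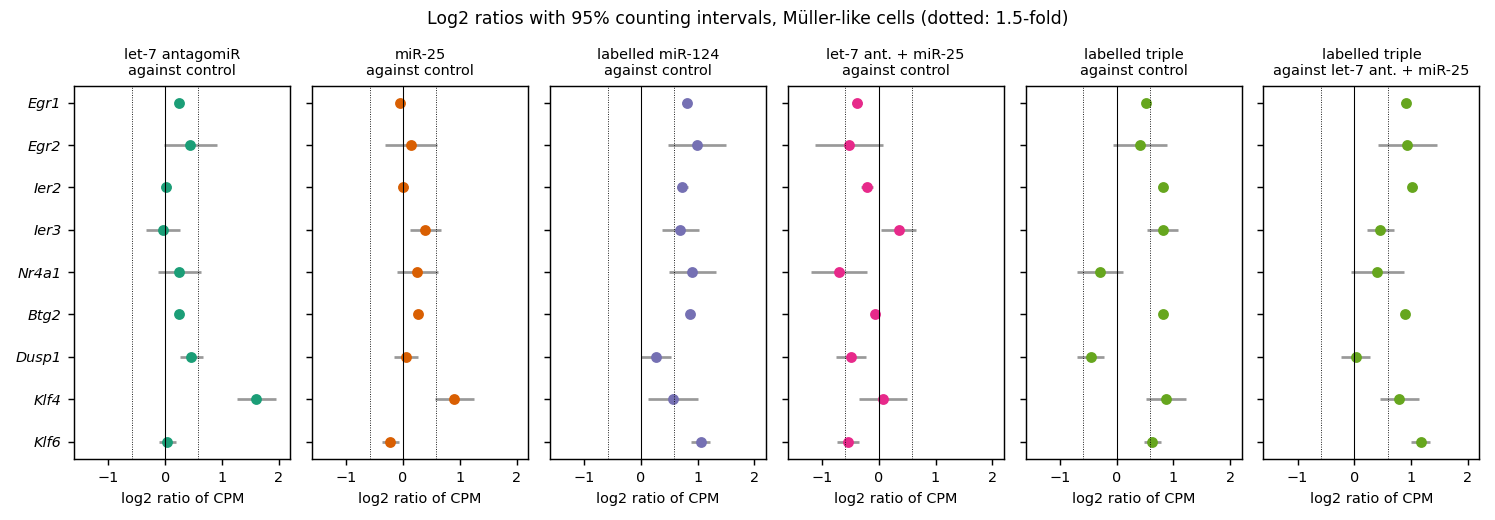
Log2 ratio of CPM (horizontal axis, no pseudocount) of 9 genes (vertical axis) in Müller-like cells for each treated library against control and, in the last panel, the triple-labelled library against the double combination; points are library pairs, grey lines 95% counting intervals, dotted lines 1.5-fold. Klf4 stands apart with let-7 antagomiR, while most genes lie right of 0 in the panels of the labelled miR-124 and triple libraries; Nr4a1 passes the dotted line in the double combination only without the pseudocount.

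Between the combinations, which the labels separate by miR-124 mimic alone, 6 of 9 genes were higher in the triple-labelled library and none lower, at 18.2% and 13.3% of all genes. In the same comparison genes with a miR-25 site differed by 0.15 (log2, SE 0.02 across genes) from those without. Genes with a let-7 site differed by -0.08 (SE 0.02), both after the allowance described above. Whether these libraries differ by miR-124 mimic alone, as labelled, was not tested. Klf6 differed most, with 158 CPM in the labelled triple against 70.4 in the double combination, a ratio of 2.24 (2.01 to 2.51). The ratio was 2.03 (1.91 to 2.16) for Ier2, 1.90 for Egr2, 1.87 for Egr1, 1.85 for Btg2 and 1.73 for Klf4. Dusp1 measured 38.1 CPM in the labelled triple and 37.4 in the double combination, a ratio of 1.02 (0.85 to 1.21).

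The double combination was also set against its own single treatments, a comparison chosen after the levels were seen. Against let-7 antagomiR, 5 of 9 genes were lower and none higher, at 4.09% and 2.14% of all genes. They were Klf4 at 0.35 (0.28 to 0.43), Dusp1 at 0.52 (0.44 to 0.61), Nr4a1 at 0.52 (0.38 to 0.70), Egr2 at 0.52 (0.36 to 0.74) and Egr1 at 0.64 (0.61 to 0.68). Against miR-25 alone, 2 of 9 were lower, Nr4a1 at 0.52 (0.38 to 0.69) and Klf4 at 0.57 (0.45 to 0.71), and none higher (3.62% and 2.08% of all genes). The Grem1-led cluster made up different parts of the class, 722 of 1368 Müller-like cells where both RNAs were given, 340 of 1494 where let-7 antagomiR was alone and 444 of 2930 where miR-25 was. With the same mix of clusters 2 genes were lower than with let-7 antagomiR and 1 lower than with miR-25, and in cells with at most 5% mitochondrial UMIs 1 (with 1 higher) and 0. The part of this make-up in the calls beyond these counts was not tested. In all Müller-like cells Klf4 was at 17.7 CPM with both RNAs, at 50.7 with let-7 antagomiR alone and at 16.7 in the control.

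Klf4 is among the genes with miR-25 seed matches. The 3′ UTRs of 6 of the 10 genes hold at least 1: Btg2 and Klf4 have 2 each, and Egr2, Dusp1, Klf2 and Klf6 have 1. Matches to let-7 were found in 2, Btg2 and Dusp1. Of 6962 genes, 16.8% hold a miR-25 and 19.2% a let-7 match. Printed are the fullest miR-25 matches (complement of bases 2 to 8 followed by A, in capitals) and both let-7 matches, on the gene's strand, GRCm38 with GENCODE vM21.
Btg2 miR-25 first match, chr1:134076312-134076341, minus strand: tctcagtcactGTGCAATAgtcccaggatg
Btg2 miR-25 second match, chr1:134076011-134076040, minus strand: tttgtagatgtGTGCAATAtttactgttct
Klf4 miR-25 match, chr4:55527356-55527385, minus strand: tggtttcagatGTGCAATAatttgtacaat
Klf2 miR-25 match, chr8:72321122-72321151, plus strand: ttttcaaaatgGTGCAATAattgacttatt
Btg2 let-7 match, chr1:134077288-134077316, minus strand: aggccaccgtaTACCTCAacctggggaac
Dusp1 let-7 match, chr17:26505802-26505830, minus strand: gaagaaccaaaTACCTCAattttgtgttt

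Of the 5 compared genes with a miR-25 match 0 were called lower in the miR-25 library, where 1.01% of all genes were. Btg2, with its pair of full matches, measured 782.4 CPM there against 651.6 in the control, a ratio of 1.20 (1.15 to 1.25). Klf4 stood at 1.86 (1.47 to 2.38), Egr2 at 1.10 (0.80 to 1.52) and Dusp1 at 1.03 (0.90 to 1.20). In cells with at most 5% mitochondrial UMIs the log2 ratio of Klf4 was -0.22, on 13 control UMIs. Such cells of the Lcn2-led cluster alone had Klf4 above control, where the control gave only 3 UMIs, so the direction is poorly fixed. Klf6 alone was below control, at 0.86 (0.77 to 0.95). In the double combination against let-7 antagomiR, genes with a match (Klf4, Dusp1, Egr2) and genes without one (Nr4a1, Egr1) were both among those called lower. For let-7, the antagomiR library held Btg2 at 1.18 (1.13 to 1.23) and Dusp1 at 1.38 times the control, while Klf4, which has no let-7 match in its 982-base 3′ UTR, stood furthest above it. A match is a description of letters, and its part in any of these values was not tested.

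Within the Müller-like class the 3 clusters differed in level, as the plot of summed levels within clusters shows. The Grem1-led cluster had 1424 summed CPM in the let-7 antagomiR, 1404 in the miR-25, 1787 in the labelled miR-124 and 1256 in the double library, against 1204 in the control. In the Lcn2-led cluster the values were 2045, 1805, 2678 and 1594 in those treated libraries, 2256 in the triple-labelled library and 1701 in the control. The Car14-led cluster could be summed in 2 libraries only, at 3095 CPM in that labelled miR-124 and 2766 in that labelled triple combination. Wherever at least 50 cells allowed it, each library had less in its Grem1-led than in its Lcn2-led cells.

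**Figure D3:**
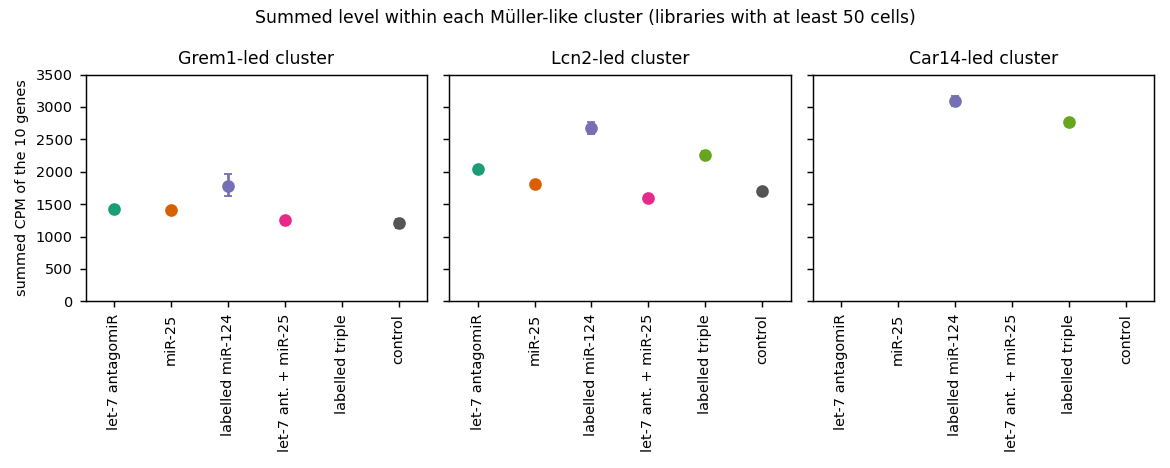
Summed CPM of the 10 genes (vertical axis) by library (horizontal axis) in each Müller-like cluster, for libraries with at least 50 cells there; bars are 95% Poisson counting intervals. The Car14-led cluster is filled by the 2 libraries whose labels name miR-124 and reaches 2766 and 3095 CPM; in the Lcn2-led cluster the same libraries remain above control, at 2678 and 2256 against 1701.

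Since the Car14-led cells belong to those 2 libraries, the Lcn2-led cluster alone, present in all 6, was compared as well. There 7 of 8 genes tested were higher in the miR-124-labelled library, at 1.94% of all genes; Nr4a1 stood at 48.7 CPM against 18.5 in the control and Ier3 at 71.5 against 32.4, while Btg2 missed the threshold at 1.48-fold. In the triple-labelled library 2 of 8 were higher there, at 2.13% of all genes: Ier2 with 487 CPM against 304.9 in the control, and Klf4 with 30.6 against 13.4. The 5 genes called in all Müller-like cells of the triple-labelled library thus came to 2 within this cluster, and Egr1 stood at 1.10 times the control there. In the Grem1-led cells of the miR-124-labelled library, only 65 cells, Ier3, Dusp1 and Klf6 were higher of 7 tested (10.2% of all genes).

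Outside the Müller-like class the order of libraries was different. Fibroblast- or mesenchymal-like cells had 2173 summed CPM in the let-7 antagomiR, 2030 in the miR-25, 2049 in the labelled miR-124, 1765 in the double, 1730 in the labelled triple and 2052 in the control library. The triple-labelled library, second highest in Müller-like cells, was thus the lowest here. By the 1.5-fold rule 1 of 8 genes was higher with let-7 antagomiR, Klf4 at 42.9 CPM against 26.2 in the control (1.55% of all genes), and none was called higher in the other treated libraries, where 0.995% (miR-25), 1.99% (miR-124-labelled), 1.77% (double) and 3.11% (triple-labelled) of all genes were. None was called lower in any, at 0.979%, 0.793%, 1.26%, 3.03% and 2.24% of all genes in the 5 treated libraries. In all kept cells together, 0 of 8 genes were called higher in the miR-124-labelled and triple-labelled libraries (3.71% and 8.1% of all genes).

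Astrocyte-like cells had 1255, 926.4, 1428, 916.3 and 1043 summed CPM in the treated libraries in the same order and 845.6 in the control. With let-7 antagomiR 4 of 7 genes were higher (3.76% of all genes): Klf4 at 50.9 CPM against 20.1 in the control, Dusp1, Klf6 and Btg2. In the miR-124-labelled library it was 5 of 7 (8.56%), Egr1 with Btg2, Dusp1, Klf4 and Klf6. These sums hold 172 to 300 cells a library, so single genes rest on few UMIs. In neuron- or progenitor-like cells the sum was 2085, 2250, 2055, 1445 and 2359 CPM in the treated libraries and 2444 in the control, the control value resting on 51 cells. Pericyte- or smooth-muscle-like cells lay close together, at 1582 to 1915 CPM in the treated libraries and 1721 in the control. Microglia- or macrophage-like cells had the lowest sums, 700.7 to 856.6 CPM in the treated libraries and 543.9 in the control.

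**Figure D4:**
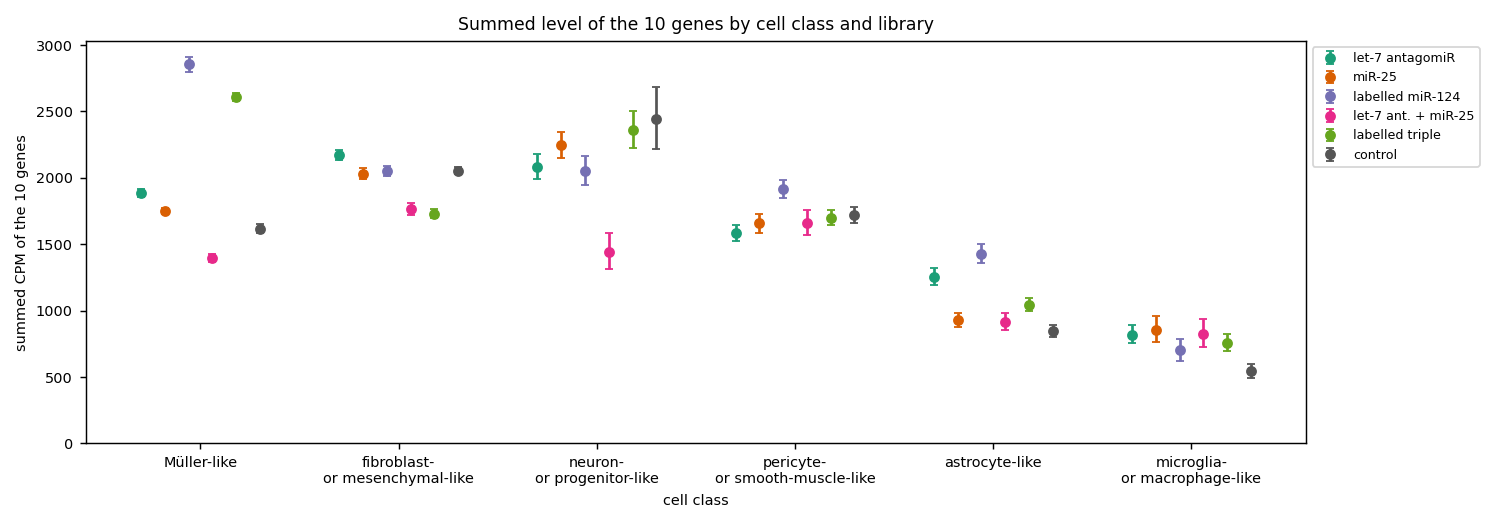
Summed CPM of the 10 genes (vertical axis) by cell class (horizontal axis), with the 5 treated libraries left of the control in each class; points are single libraries and bars 95% Poisson counting intervals. The miR-124-labelled and triple-labelled libraries stand above control in Müller-like cells, at 2856 and 2610 against 1618. In astrocyte-like cells they had 1428 and 1043 against 845.6, and in microglia- or macrophage-like cells 700.7 and 757.7 against 543.9. In both of these classes all 5 treated libraries lie above control. Neuron- or progenitor-like cells had 2055 and 2359 against 2444, pericyte- or smooth-muscle-like cells 1915 and 1701 against 1721. Fibroblast- or mesenchymal-like cells had 2049 and 1730 against 2052.

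Single genes had their own places among the classes. Egr2 was at 38.3 to 56.1 CPM in pericyte- or smooth-muscle-like cells of the 5 treated libraries and 47.5 in the control, above the 7.49 to 21.2 CPM of Müller-like cells in the treated libraries and 10.7 in the control. Klf2 was likewise found there, at 16.4 to 42.6 CPM in treated libraries and 28.6 in the control, against at most 1.95 CPM in Müller-like cells of any library. Klf6 was higher in microglia- or macrophage-like cells, 266 to 316.2 CPM in treated libraries and 222.7 in the control, than in Müller-like cells of the same library in all 6. Pericyte- or smooth-muscle-like cells also had much Klf6, 232.5 to 381.8 CPM in treated libraries and 319.8 in the control. They were above the microglia- or macrophage-like cells in the miR-124-labelled, triple-labelled and control libraries and below them in the others. Btg2 was low in microglia- or macrophage-like cells, 60.2 to 131.8 CPM in treated libraries and 77.7 in the control. Nr4a1 was at 0 to 5.49 CPM in microglia- or macrophage-like cells of the treated libraries and 2.59 in the control, where Müller-like cells had 10.7 to 32.4 and 17.3.

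Dusp1 in pericyte- or smooth-muscle-like cells measured 85.1 CPM with let-7 antagomiR, 55.7 with miR-25, 136.5 in the miR-124-labelled library, 78.8 in the double, 76.4 in the labelled triple and 136.2 in the control library. The miR-124-labelled library lay beside the control and the other treated libraries below it. Microglia- or macrophage-like cells showed the reverse for the same gene, 49.4 to 86.7 CPM in treated libraries and 27.2 in the control, on 70 to 123 cells a library.

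To see how the transcripts were spread over cells, Müller-like cells were thinned to 2000 UMIs each, with 36 to 181 shallower cells left out per library. A cell then held on average 4.03 UMIs of the 10 genes with let-7 antagomiR, 3.72 with miR-25, 5.79 in the miR-124-labelled library, 2.96 in the double, 5.43 in the labelled triple and 3.43 in the control library. The share of cells with 5 or more such UMIs was 38.3%, 33.9%, 57.9%, 23.7% and 56.6% in the treated libraries and 29.4% in the control. The tenth of cells richest in them held 25.9%, 27.0%, 22.8%, 27.4% and 22.8% of these UMIs in the treated libraries and 27.9% in the control. At least 1 such UMI was seen in 84.7% to 93.6% of thinned cells of the treated libraries and 86.2% of the control (92.5% to 96.1% and 93.9% unthinned), against 65.2% to 77.6% and 56.4% in thinned microglia- or macrophage-like cells. Median depth was 2657 to 5617.5 UMIs in Müller-like cells of the treated libraries and 3926 in the control, and 3972 to 6990 and 6362 in microglia- or macrophage-like cells. From cell to cell, over 270 pairs within libraries, the median Pearson r of log(1 + thinned UMIs) was 0.04. The highest was 0.32, Ier2 with Btg2. Btg2, Egr1 and Ier2, the genes seen most, were found in 62.85%, 54.0% and 40.3% of thinned control cells. Their pairs were positive in every library, at 0.243 to 0.302 for Egr1 with Btg2. For Ier2 with Btg2 the range was 0.179 to 0.316, and for Egr1 with Ier2 0.113 to 0.246. Klf2, Nr4a1, Egr2 and Klf4 were seen in only 0.17%, 2.63%, 2.88% and 3.22% of thinned control cells. Counts this sparse hold r near 0, so for pairs with such genes a weak relation cannot be told apart from sparse counting.

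The level also moved with the mitochondrial share of a cell, a measure of RNA quality. Müller-like cells had a median of 6.76% mitochondrial UMIs with let-7 antagomiR, 5.90% with miR-25, 7.51% in the miR-124-labelled library, 6.50% in the double, 6.44% in the labelled triple and 7.39% in the control library. In cells over 5% the 10 genes together were 1.57, 1.495, 1.41, 1.22 and 1.57 times their level in cells at most 5% in the treated libraries, and 1.31 times in the control. Egr1, Egr2, Ier2, Nr4a1, Btg2 and Dusp1 were each higher in the cells over 5% in 6 of 6 libraries. Egr1 differed by 1.51 to 1.87 times in the treated libraries and by 1.51 in the control.

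**Figure D5:**
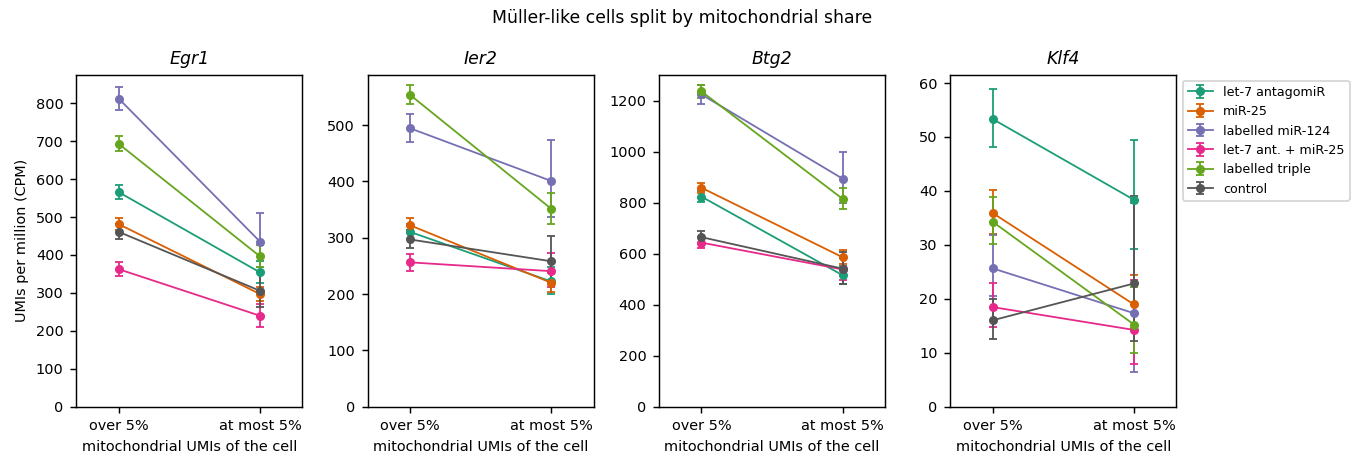
CPM (vertical axis) of 4 genes in Müller-like cells with over 5% and at most 5% mitochondrial UMIs (horizontal axis), 1 line per library with 95% Poisson counting intervals. Egr1, Ier2 and Btg2 are higher in the cells over 5% in all 6 libraries; Klf4 goes the other way in the control, where the lower group holds 127 cells.

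The same 6 genes were higher over 5% in all 6 libraries in the Lcn2-led cluster taken alone. In fibroblast- or mesenchymal-like cells, the sum of the 10 genes was higher over 5% in 1 of 6 libraries. That was the triple-labelled one, at 1732 against 1730 CPM. Few cells of this class were over 5%, 15 to 108 in the treated libraries and 271 in the control. Klf4 in Müller-like cells measured 53.3 CPM over 5% against 38.4 at most 5% with let-7 antagomiR, while the ratio of these cells was 0.70 (0.39 to 1.38) in the control, where the cells at most 5% gave only 13 UMIs. Restricted to cells at most 5%, Klf4 was no longer above control with miR-25 (log2 ratio -0.22) or in the triple-labelled library (-0.46). In the Lcn2-led cluster alone such cells had Klf4 at 15.4 CPM with miR-25 and 19.6 in the triple-labelled library. The control there was lower, at 7.85 CPM, on 3 UMIs only. With this restriction in all Müller-like cells, 3 genes were called higher in the triple-labelled library. The summed level in cells at most 5% was 2091 CPM in the miR-124-labelled library and 1792 in that labelled triple combination, against 1270 in the control. How far the mitochondrial share accounts for the differences between treatments was not tested.

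Over 36 sums of a library and a cell class, Ier2 and Egr1 followed the sum of the other 9 genes most closely, with Pearson r of 0.95 and 0.93, then Nr4a1 at 0.78 and Btg2 at 0.61. Klf4 and Egr2 were at 0.54 and 0.50, Dusp1 and Klf2 at 0.19 and 0.14, and Ier3 and Klf6 were negative at -0.21 and -0.39. The points mix cell classes with libraries, so r also reflects differences between classes. Within Müller-like cells Klf6 measured 211.4 CPM in the miR-124-labelled and 158 in the triple-labelled library against 102.1 in the control. Ier3 there measured 46.6 and 50.5 against 28.8, so both rose in the libraries where the sum did. The points share libraries and depth, so these are descriptions. Among all other genes the likest to the sum was Junb, an AP-1 subunit and itself an immediate early gene, at 0.94, with 540.9, 511.8, 750, 395.1 and 831.8 CPM in Müller-like cells of the treated libraries and 409.9 in the control. Rhobtb3 (0.90), Mast4 (0.89), Sh3rf1 (0.89), Ppp1r15a (0.88) and Wipi1 (0.88) came next. Ppp1r15a, which restores translation after stress, belongs to the stress-induced genes.

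Promoter windows of RefSeq starts (GRCm38.p6, from 250 bases before to 50 after) were found for 8 of the 10 genes, all but Egr1 and Ier2, and searched on both strands for the cyclic AMP response element TGACGTCA, its shorter core TGACG, which lies inside it, and the CArG box bound by serum response factor. The full element was present in Btg2 and Dusp1 and in 1.79% of 32851 promoters. The core was present in 6 genes, Egr2, Nr4a1, Btg2, Dusp1, Klf2 and Klf4, and in 20.8% of promoters. A CArG box was found in Egr2, in 4 of its 5 listed windows, and in 1.63% of promoters. Btg2 and Dusp1 are shown because they share the full element and yet went apart in the triple-labelled library, 1.77 and 0.73 times the control; Egr2 is shown for its CArG box. Capitals mark these 3 motifs.
Btg2, chr1:134079106-134079405, minus strand: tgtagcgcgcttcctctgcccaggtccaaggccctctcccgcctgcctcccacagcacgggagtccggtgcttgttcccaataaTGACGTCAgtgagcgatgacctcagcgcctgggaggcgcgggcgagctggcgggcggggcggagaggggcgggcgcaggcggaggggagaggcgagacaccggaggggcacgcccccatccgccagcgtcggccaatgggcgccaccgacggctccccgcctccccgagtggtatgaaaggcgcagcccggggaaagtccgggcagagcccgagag
Dusp1, chr17:26508423-26508722, minus strand: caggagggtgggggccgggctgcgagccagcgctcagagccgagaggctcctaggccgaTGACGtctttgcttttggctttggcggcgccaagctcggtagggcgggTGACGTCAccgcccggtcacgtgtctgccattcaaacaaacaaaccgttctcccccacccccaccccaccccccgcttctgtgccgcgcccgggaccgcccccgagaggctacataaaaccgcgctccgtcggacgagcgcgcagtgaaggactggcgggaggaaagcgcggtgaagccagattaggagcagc
Egr2, chr10:67537619-67537918, plus strand: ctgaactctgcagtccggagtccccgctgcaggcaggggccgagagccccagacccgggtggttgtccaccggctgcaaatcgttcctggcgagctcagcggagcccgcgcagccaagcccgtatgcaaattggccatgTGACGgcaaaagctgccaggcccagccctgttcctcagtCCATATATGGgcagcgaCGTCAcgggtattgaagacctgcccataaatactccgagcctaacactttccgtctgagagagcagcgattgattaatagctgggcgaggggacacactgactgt

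Other early response genes were counted in the same cells from 7 lists, by the same rule. Over all genes 8.15% were higher and 6.76% lower in the miR-124-labelled library, and 11.2% and 8.91% in the triple-labelled one. Of 10 AP-1 subunits, 7 were compared; 4 were higher and 1 lower in the miR-124-labelled library, and 5 higher and 1 lower in that labelled triple combination. Fos, the founding member, measured 1201, 961, 1824, 636.1 and 1476 CPM in the treated libraries and 853.5 in the control, while Fosl2 was lowest in the labelled triple at 35.4 CPM against 76.5 in the control. Jun measured 575.7 CPM in the labelled miR-124 and 690.2 in the labelled triple library against 407.1. Among 15 compared feedback inhibitors of 23 listed, 5 were higher in each of these libraries, and 0 lower in the labelled miR-124 and 2 in the labelled triple. Zfp36, an RNA-binding protein that speeds the decay of AU-rich transcripts, measured 193.3 CPM in the labelled miR-124 and 231.8 in the labelled triple library, against 71.4 in the control, and 36.7 in the double combination. Socs3, the brake on cytokine signalling, measured 278.1 and 268.5 CPM in the same 2 libraries against 153.7, whereas Spry1 and Nfkbia were lowest of that list, at 11.9 and 82.8 CPM in the labelled triple against 35.7 and 130.8 in the control.

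Of 10 other Klf factors 5 were compared, and 3 were higher and 0 lower in each of the 2 libraries; Klf9 measured 141.1 CPM in the labelled miR-124 and 128.1 in the labelled triple against 58.6 in the control, Klf3 79.8 and 82.8 against 43.0, Klf10 43.2 and 27.4 against 23.7, and Klf7 46.3 and 38.8 against 57.3. Of 6 compared early transcription factors, from a list of 18, 4 were higher in the labelled miR-124 and 2 in the labelled triple library, none lower, with Bhlhe40 at 120.5 and 106.3 CPM against 60.7, Sox4 at 273.9 and 247.6 against 148.7, Ier5 at 26.8 and 22.6 against 25.4 and Srf at 20.4 and 19.2 against 21.6. In the family of Btg2, 0 of 3 compared Btg and Tob genes were called in either library, Btg1 at 115.5 and 111.9 CPM against 103.0, Tob1 at 72.2 and 76.1 against 65.97 and Tob2 at 57.5 and 72.8 against 49.1. Of the secreted and cytoskeletal early genes, 1 was higher and 4 lower of 9 compared and 12 listed in the labelled miR-124 and 0 higher and 5 lower in the labelled triple; Hbegf, an EGF receptor ligand, measured 171.3 and 131.8 CPM against 420.8 in the control, and the cytokine Lif 30.4 and 20.5 against 78.2, while Cxcl1 was at 32.9 and 19.0 against 18.2 and Rhob at 48.0 and 81.8 against 65.2. Of 10 compared heat shock genes, from 12, 2 were higher and 1 lower in the labelled miR-124 and 0 and 1 in the labelled triple library, Hspb1 at 25.9 and 27.6 CPM against 79.7, Hspd1 at 137.5 and 127.6 against 144.2, Hsph1 at 110.7 and 92.6 against 61.5 and Dnajb1 at 203.6 and 150.3 against 108.6. The median log2 ratios to control, first in the miR-124-labelled and then in the triple-labelled library, were 0.75 and 0.79 for AP-1, 0.88 and 0.10 for early transcription factors, 0.40 and 0.05 for feedback inhibitors and 0.75 and 0.73 for Klf factors. Those of the Btg and Tob family were 0.16 and 0.19, of secreted and cytoskeletal genes -0.42 and -1.02 and of heat shock genes 0.17 and 0.10, beside 0.05 and 0.06 over all 7118 genes.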

How the data were processed

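Raw UMI counts were deposited by the authors as 1 gene-by-cell matrix per library; Cell Ranger 2, Seurat 2 and mm10 are named in the submitters' processing notes. Their cell filters are not stated in the labels. Kept cells had 500 or more genes and a mitochondrial share of 10% or less. Scrublet calls, 0.11% to 3.06% per library, were removed; it marked 0.19% of the miR-25, 0.15% of the labelled triple and 0.11% of the control library, and is taken not to have worked in these 3. Clustering (scanpy 1.11.5, 2000 variable genes, 30 components, Leiden resolution 0.6, no integration) left out 98 early genes. Counts were summed per library and class, and genes with at least 20 CPM in 1 library were compared as log2(CPM + 5). Intervals are exact Poisson or conditional Clopper-Pearson, at 95%, from scipy 1.17.1. The ratio step was tested on simulated data. All 10 genes are named whatever their values, with the 6 genes likest to their sum and, of each list, the 2 highest and 2 lowest. Members and lists were chosen with earlier results of these data known. Alternatives numbered 10.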

Additional observations from a re-analysis of the deposited data

Results flagged for a closer look

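Some log2 ratios went past 1.5-fold in opposite directions in different cell classes of the same library pair. Dusp1 was higher with let-7 antagomiR than in control in astrocyte-like (0.79) and microglia- or macrophage-like cells (0.83), and lower in pericyte- or smooth-muscle-like cells (-0.65). The same gene in the double combination against control was at 1.13 in microglia- or macrophage-like and -0.75 in pericyte- or smooth-muscle-like cells, and in the library labelled triple combination at 0.78 and -0.80. Between the labelled triple and the double combination, Ier2 was at 1.01 in Müller-like and -0.85 in microglia- or macrophage-like cells, and Klf4 at 0.65 in Müller-like and -0.64 in fibroblast- or mesenchymal-like cells. With 1 library per treatment the differences between classes were not tested.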

How the results depend on the processing

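With 1 library per treatment, library and treatment cannot be told apart, and depth limits Klf2, Egr2 and Nr4a1. No paired analysis was possible because each treatment had 1 library. Of 160 counts under alternatives, 143 stayed within 1.5 times, and counts that were 0 and stayed 0 are among them. Of 800 single-gene log2 ratios under alternatives, 701 stayed within the counting interval, 97 moved beyond it and 2 were reversed. In all kept cells the miR-25, labelled miR-124 and labelled triple libraries each had 0 genes higher than control, the double combination 1 lower, and the labelled triple 1 higher than the double. The double also had 1 lower with a pseudocount of 1 CPM and with the highest 4% of Scrublet scores removed. At most 5% mitochondrial UMIs gave 3 higher in the labelled triple against control and 3 against the double. The same limit reversed Klf4 with miR-25 (-0.22) and in the labelled triple (-0.46) against control, though not in the Lcn2-led cluster alone. The control values rest on 13 UMIs in all Müller-like cells and on 3 in that cluster, so either direction is poorly fixed. For the labelled triple against control, the same mix of clusters used the Lcn2-led cluster only. The others had too few cells, 45 Grem1-led in the labelled triple and 13 Car14-led in the control. That mix gave 2 higher, which repeats the result of the Lcn2-led cluster. Of the 5 genes lower in the double combination than with let-7 antagomiR, the counts were 3 in all kept cells, 1 at most 5% mitochondrial UMIs (with 1 higher) and 2 with the same mix of clusters; of the 2 lower than with miR-25, 1, 0 and 1. The cause was not tested.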
